A study of Mus musculus with 12 samples.

Results

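Endothelins, angiotensin II, adrenomedullin and vasopressin are peptides that set the tone and growth of the vessel wall, and 10 genes for such peptides, their converting enzymes and their receptors are described here across 12 libraries of cultured mouse vascular smooth muscle cells. The members were chosen by symbol from the 55487 genes of the deposited table: the ligands Edn1, Edn3 and Adm, the enzymes Ece1 and Ace, and the receptors Ednra, Ednrb, Agtr1a, Agtr1b and Avpr1a. Of these, 6 passed the filter on low values (at least 1 CPM, the library's reads scaled to a common total, in at least 3 libraries), and Edn3, Ednrb, Agtr1a and Agtr1b did not. The RNA came from primary vascular cells of wild-type mice or of mice labelled TIGAR knockout, taken at 4 to 6 weeks of age and used at passages 4 to 6, either left untreated or exposed for 6 h to 40 µg/L of PDGF-BB, a mitogen of smooth muscle (called treated). The 4 groups by label and treatment held 3 libraries each. All were grown in medium with serum. The labels give neither the strain nor the form of the Tigar allele, and do not tie libraries to animals or cultures, so p-values measure only the spread between these libraries, which may be technical.

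In this system the precursor of endothelin 1 is cut to its active form by the endothelin converting enzyme, and the peptide contracts smooth muscle through the ETA receptor, while the ETB receptor on endothelium relaxes the vessel and clears the peptide. Angiotensin converting enzyme makes angiotensin II, which acts on smooth muscle through the AT1 receptor, encoded by a pair of closely similar genes in the mouse. Adrenomedullin relaxes vessels through the receptor CALCRL joined to a RAMP protein. Endothelin 1 is made mainly by endothelial cells in the intact vessel, and smooth muscle is one of its main targets.

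Library totals ran from 14953807 to 21698488 reads, where 1 read is worth 0.0461 to 0.0669 CPM. Tigar, the targeted gene, was not lower in libraries labelled knockout. It had 7.50 ± 0.955 CPM (SD, n = 3) in untreated wild-type and 11.2 ± 1.12 CPM in untreated labelled knockout libraries. With PDGF-BB it had 11.9 ± 0.659 CPM in wild-type and 15.2 ± 0.888 CPM in labelled knockout libraries. It was called higher by label untreated (log2 0.52, limma-trend adjusted p = 0.00209) and with PDGF-BB (0.33, adjusted p = 0.0292). Each direction between genotypes is therefore by label only. Replicate 1 of treated wild-type differed more from its group's other libraries than any other did (root mean square log2 distance 0.416, against 0.143 to 0.293 for the other 11 libraries), and member calls that change without it are given beside the result. Over the genes tested, its deviation from its group's other libraries fell with exon length (Spearman rho -0.577). For replicates 2 and 3 of treated wild-type rho was 0.431 and 0.526. Ace and Ece1 have the longest exonic sequence of the tested members, 4906 and 4816 bases. The part of exon length in their levels was not tested. Of the 8 smooth muscle markers, all had reads, and their summed level was 1490 to 2330 CPM in wild-type and 2290 to 3500 CPM in labelled knockout libraries. Most of it came from Acta2, smooth muscle actin, at a mean of 1300 to 2580 CPM over the groups. Tagln was at a mean of only 3.41 to 6.93 CPM, and Des did not pass the filter. By label 4 of the 7 tested were higher untreated and 6 of 7 with PDGF-BB, beside 9.15% and 10.6% of all genes. The first of these counts of markers was 1 without replicate 1 or 3 of untreated wild-type or replicate 2 or 3 of untreated labelled knockout.

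The promoters of the 2 peptide genes with reads, Edn1 and Adm, and of the receptor gene Ednra, whose RNA moved in the same directions as that of Adm in the 4 comparisons of groups, are shown from RefSeq (GRCm38.p6), as 250 bases before to 30 bases after the annotated start, 5′ to 3′. They lie at chr13:42301226-42301505 on the plus strand, chr7:110627407-110627686 on the plus strand and chr8:77724423-77724702 on the minus strand. Capitals mark matches to motifs searched on both strands: TTATCT for GATA factors, ACGTG for the core of hypoxia response elements, TGANTCA for AP-1 and TATAA for the TATA box, whose matches on both strands can overlap.
Edn1: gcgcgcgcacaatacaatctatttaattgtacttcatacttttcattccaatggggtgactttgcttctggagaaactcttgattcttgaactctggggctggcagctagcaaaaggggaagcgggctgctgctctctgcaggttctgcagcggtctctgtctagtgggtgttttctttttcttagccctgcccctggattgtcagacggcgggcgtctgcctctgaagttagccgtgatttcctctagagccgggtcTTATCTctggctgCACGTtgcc
Adm: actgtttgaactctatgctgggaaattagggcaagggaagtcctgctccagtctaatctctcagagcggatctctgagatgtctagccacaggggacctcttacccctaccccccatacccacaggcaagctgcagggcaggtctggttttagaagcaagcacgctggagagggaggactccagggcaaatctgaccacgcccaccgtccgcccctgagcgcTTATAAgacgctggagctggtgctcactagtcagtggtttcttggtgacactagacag
Ednra: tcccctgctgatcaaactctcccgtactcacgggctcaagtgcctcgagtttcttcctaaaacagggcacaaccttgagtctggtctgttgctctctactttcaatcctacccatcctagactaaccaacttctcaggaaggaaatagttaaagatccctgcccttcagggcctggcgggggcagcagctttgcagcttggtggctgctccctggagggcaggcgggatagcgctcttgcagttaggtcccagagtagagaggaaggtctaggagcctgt
In the Edn1 window TTATCT starts 9 bases and CACGT, the reverse complement of ACGTG, 22 bases downstream of the start, counted from 1 at its first base. TTATCT or its reverse complement was in 10.7% and ACGTG or its reverse complement in 18.5% of 32851 promoter windows of this length. In Adm the letters TTATAA, which hold TTATA and the overlapping TATAA, begin 28 bases before the start, and a TATAA match was in 24.0% of windows. No letters of the 4 motifs were found in the Ednra window, and TGANTCA, which 7.46% of windows held, was in none of these 3. Of the 10 members 9 were matched in the promoter table, and Agtr1a was not. These matches describe the sequence and say nothing of binding.

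Edn1, the gene of the endothelin 1 precursor (ENSMUSG00000021367, chromosome 13, 42301476 to 42307990, plus strand), was the member with the largest differences. In untreated cells it was at 17.3, 21.2 and 17.0 CPM in wild-type and at 132, 107 and 102 CPM in the libraries labelled knockout. With PDGF-BB it was at 7.05, 8.11 and 6.19 CPM in wild-type and at 74.8, 75.7 and 79.4 CPM in the labelled knockout libraries. No 2 of the 4 groups overlapped, and every labelled knockout library lay above every wild-type one, as the plot of levels by library shows. The ratio of mean CPM between the labels was 6.14 without and 10.8 with PDGF-BB. On the log2(CPM + 1) scale the difference was 2.55 untreated (SE 0.12, limma-trend adjusted p = 4.45e-09) and 3.26 with PDGF-BB (SE 0.12, adjusted p = 5.54e-10). Among the 14202 genes tested these were the 29th and the 3rd largest rises, and 34.0% and 37.2% of all genes were called in these comparisons, 9.15% and 10.6% of them all as higher.

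**Figure D1:**
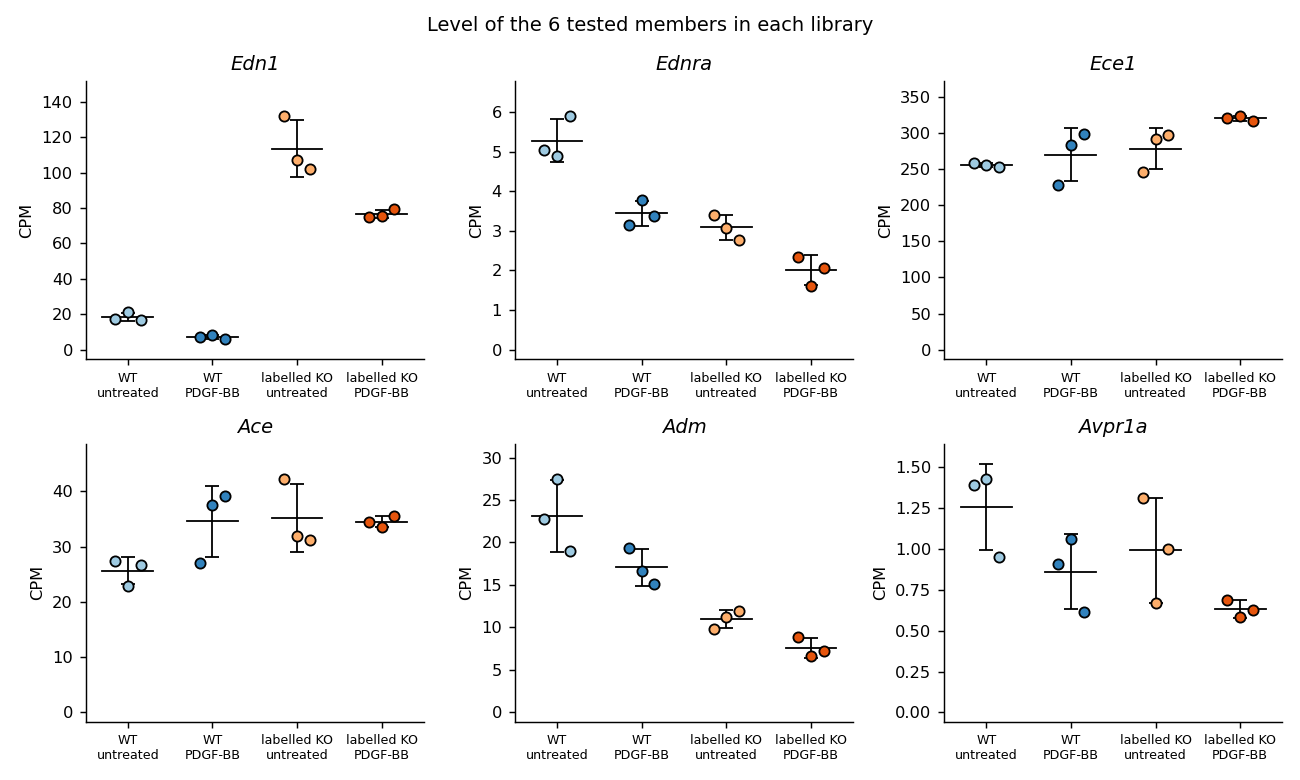
Level of the 6 tested members in CPM (vertical axis, linear, from 0) in each of the 12 libraries, by group (horizontal axis). Points are libraries, long bars are means and error bars are SD (n = 3), and Edn1 runs from 6.19 CPM in treated wild-type to 132 CPM in untreated labelled knockout libraries.

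Edn1 fell with PDGF-BB under both labels. Means in wild-type cells were 18.5 ± 2.36 and 7.12 ± 0.960 CPM (SD, n = 3) without and with it, and the log2 change was -1.27 (SE 0.12, limma-trend adjusted p = 1.02e-06). In labelled knockout cells they were 114 ± 16.0 and 76.6 ± 2.44 CPM, and the log2 change was -0.56 (SE 0.12, adjusted p = 0.00180). The fall was smaller in labelled knockout cells on the log2 scale, with an interaction of 0.71 (SE 0.16, adjusted p = 0.0288), in a test that called 3.92% of all genes, 2.25% as higher. The call of the interaction ended without replicate 1 or 2 of untreated wild-type (0.75 and 0.61, adjusted p = 0.0561 and 0.0743), without replicate 2 or 3 of untreated labelled knockout (0.67 and 0.64, adjusted p = 0.0825 and 0.0841), and without replicate 1, 2 or 3 of treated labelled knockout (0.73, 0.72 and 0.68, adjusted p = 0.0692, 0.0757 and 0.0817). It ended too with no filter (0.71, adjusted p = 0.0637) and under quantile normalization (0.56, adjusted p = 0.0811), and its adjusted p lay between 6.41e-05 and 0.0841 under the 21 alternatives.

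Endothelial markers moved with Edn1 between the labels. All 10 markers of the list had reads, 9 were tested, and all 9 were higher in labelled knockout cells, both without PDGF-BB (median log2 difference 2.64, against -0.13 over all genes) and with it (2.63, against -0.14). Their summed level was 105 to 111 CPM in untreated wild-type, 88.7 to 91.6 CPM in treated wild-type, 694 to 792 CPM in untreated labelled knockout and 655 to 675 CPM in treated labelled knockout libraries. Pecam1, an adhesion molecule of endothelial cell junctions, was at 37.8 ± 2.51 and 256 ± 7.87 CPM (SD, n = 3) in untreated wild-type and labelled knockout cells. The ratio of mean CPM between the labels was 2.60 to 8.29 over the 10 markers in untreated cells, with a median of 6.64, beside 6.14 for Edn1. With PDGF-BB it was 2.80 to 8.97, with a median of 6.83, beside 10.8 for Edn1. In bulk RNA more cells of a type and more RNA per cell cannot be told apart, and the part of the endothelial markers in the Edn1 difference was not tested.

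**Figure D2:**
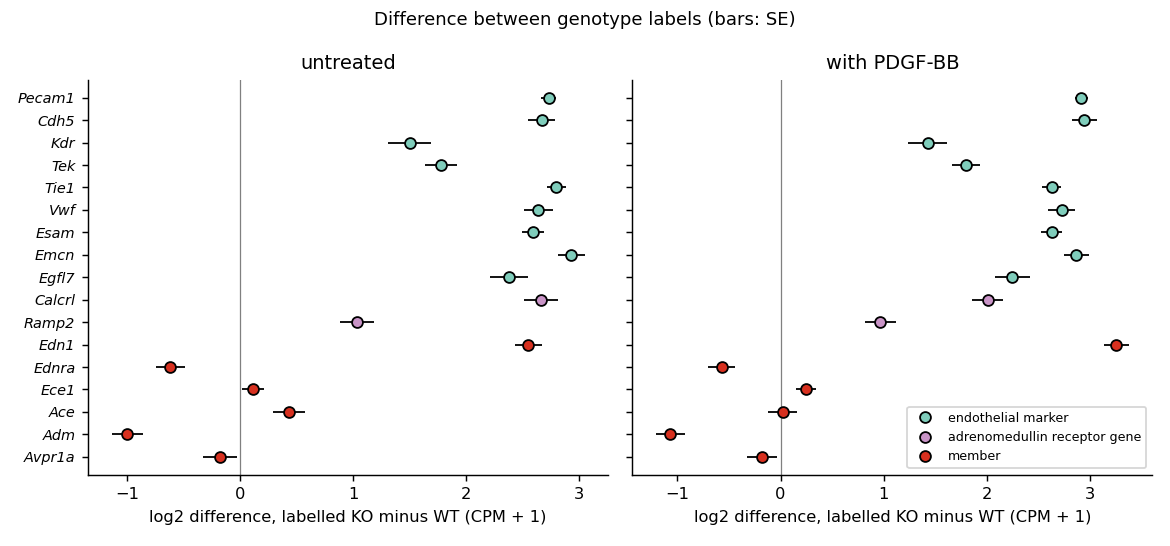
Log2 difference on the CPM + 1 scale between labelled knockout and wild-type libraries (horizontal axis, bars are SE) for 9 endothelial markers, the adrenomedullin receptor genes Calcrl and Ramp2 and the 6 tested members (vertical axis), untreated on the left and with PDGF-BB on the right. Edn1 lies among the endothelial markers at 2.55 in untreated cells and above them at 3.26 with PDGF-BB, while Ednra and Adm lie below 0.

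With PDGF-BB, 5 of the 9 endothelial markers fell in wild-type cells (median -0.28, against -0.08 over all genes), and 1 of 9, Kdr, fell in labelled knockout cells (median -0.22, against -0.07). Of all genes, 34.4% and 24.8% were called lower in these comparisons. By edgeR some of the wild-type falls of markers were not called, among them those of Cdh5 and Tek (adjusted p = 0.0541 and 0.0665). The counts of markers moved with single libraries. Without replicate 1 of treated wild-type they were 7 and 4. The first was 3 without replicate 3 of untreated wild-type or replicate 2 or 3 of treated wild-type. The second was 2 without replicate 3 of treated wild-type or replicate 2 of treated labelled knockout, and 3 without replicate 2 of untreated labelled knockout. Macrophage markers went the other way between the labels: 9 of 9 tested were lower in untreated and 8 of 9 in treated labelled knockout cells, with summed levels of 117 to 168 CPM in wild-type and 35.6 to 46.3 CPM in labelled knockout libraries. Of the 7 tested fibroblast markers 2 were higher and 1 lower in untreated and 2 higher and 2 lower in treated labelled knockout cells, and their summed level was 382 to 493 CPM in wild-type and 985 to 1640 CPM in labelled knockout libraries. The collagen gene Col14a1 gave means of 210 and 136 CPM of it in untreated and treated wild-type and of 1260 and 821 CPM in untreated and treated labelled knockout cells. Without replicate 1 of untreated labelled knockout 2 fibroblast markers were lower by label untreated in place of 1. Of 4 tested Schwann cell and melanocyte markers 3 were lower in untreated and 1 in treated labelled knockout cells, and the defining genes Sox10, Dct and Tyr had no reads. Of 2 tested epithelial markers Krt18 was higher under both treatments, and the list summed to at most 21.1 CPM in any library. Of all genes, 9.15% and 24.8% were called higher and lower by label untreated, and 10.6% and 26.6% with PDGF-BB. The part of these lists in the members' differences was not tested.

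The genes most alike to Edn1 over the 12 libraries, by the root mean square difference of centred log2(CPM + 1), were Bmp6 (0.237), a bone morphogenetic protein, Cd93 (0.274), a receptor found on endothelial cells, and Sfrp1 (0.290), a secreted Wnt antagonist. Bmp6 was at 14.3 ± 0.722, 8.27 ± 0.240, 112 ± 17.3 and 84.4 ± 4.92 CPM (SD, n = 3) in untreated wild-type, treated wild-type, untreated labelled knockout and treated labelled knockout cells. Each of these 3 genes, as Edn1, was highest in untreated labelled knockout and lowest in treated wild-type cells. They were picked for their likeness over these same libraries, so a shared order follows from the choice.

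Edn3, the gene of endothelin 3 (ENSMUSG00000027524, chromosome 2, 174760619 to 174784042, plus strand), had 0 of 206600962 reads over the 12 libraries, which allows a level of up to 0.0145 CPM, for counting error only. Edn2, which encodes endothelin 2 and was on the list of other pathway genes, had few reads and was highest in treated wild-type cells. It was at 0.196 ± 0.105 CPM (SD, n = 3) in untreated wild-type, 2.05 ± 0.583 in treated wild-type, 0.0185 ± 0.0321 in untreated labelled knockout and 0.137 ± 0.160 CPM in treated labelled knockout cells. Edn2 passed the filter through the treated wild-type libraries alone, the group that its tests compare, and its rise and its difference by label were called with no filter too. Its log2 rise in wild-type cells was 1.34 (SE 0.16, limma-trend adjusted p = 1.35e-05), and with PDGF-BB it was lower in labelled knockout cells by -1.42 (SE 0.16, adjusted p = 1.94e-05). The interaction of -1.19 (adjusted p = 0.0113) was not called by edgeR on recovered reads (adjusted p = 0.849, and 1 with no filter).

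Ece1, the endothelin converting enzyme (ENSMUSG00000057530, chromosome 4, 137862237 to 137965229, plus strand), was the member with the highest level per kilobase of exon in all 4 groups, at 53.1 ± 0.586 to 66.3 ± 0.757 CPM per kb (SD, n = 3). It was at 258, 256 and 253 CPM in untreated wild-type and at 228, 283 and 298 CPM in treated wild-type libraries. In labelled knockout cells it was at 246, 291 and 297 CPM untreated and at 320, 323 and 316 CPM with PDGF-BB. The labelled knockout libraries with PDGF-BB were the highest of all, and the other 3 groups overlapped. No comparison of Ece1 was called: the log2 change was 0.07 in wild-type (95% interval -0.14 to 0.27, limma-trend adjusted p = 0.570), 0.21 in labelled knockout cells (0.00 to 0.41, adjusted p = 0.0987), and the difference between labels was 0.11 untreated (-0.09 to 0.32, adjusted p = 0.388) and 0.25 with PDGF-BB (0.05 to 0.46, adjusted p = 0.0506).

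The Ece1 difference with PDGF-BB lies at the threshold: 9 of 22 alternatives called it, among them TMM scaling (0.36, adjusted p = 0.0179), edgeR (0.35, adjusted p = 0.0211) and DESeq2 (0.38, adjusted p = 0.00517), and its adjusted p ran from 0.000496 to 0.123. Without replicate 1 of treated wild-type, the rise of Ece1 with PDGF-BB was called in wild-type (0.18, adjusted p = 0.0163) and in labelled knockout cells (0.21, adjusted p = 0.00414). The order of the members by level per kilobase was not the same under both labels. In untreated wild-type cells Edn1 stood at 8.66 ± 1.10 CPM per kb, below Adm at 16.6 ± 3.08, while in untreated labelled knockout cells it stood at 53.2 ± 7.49 CPM per kb, beside Ece1 at 57.7 ± 5.81, and the libraries of these 2 genes overlapped. Ace at 5.23 ± 0.503 and Ednra at 1.46 ± 0.150 CPM per kb followed in untreated wild-type cells, and Avpr1a and the 4 members below the filter lay lower still.

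Ednra, the gene of the ETA receptor (ENSMUSG00000031616, chromosome 8, 77663031 to 77724464, minus strand), was lower with PDGF-BB and lower in labelled knockout cells. It was at 5.04, 4.89 and 5.90 CPM in untreated wild-type, 3.16, 3.79 and 3.37 CPM in treated wild-type, 3.40, 3.08 and 2.78 CPM in untreated labelled knockout and 2.35, 1.61 and 2.06 CPM in treated labelled knockout libraries. Wild-type untreated libraries were the highest and labelled knockout libraries with PDGF-BB the lowest, and the other 2 groups overlapped in between. The change with PDGF-BB was -0.50 in wild-type (SE 0.13, limma-trend adjusted p = 0.00460) and -0.45 in labelled knockout cells (SE 0.13, adjusted p = 0.0127). The difference by label was -0.62 untreated (SE 0.13, adjusted p = 0.00220) and -0.57 with PDGF-BB (SE 0.13, adjusted p = 0.00410). The ratios of mean CPM, which have no added 1, were 0.585 and 0.583. The interaction was 0.05 (95% interval -0.34 to 0.44, adjusted p = 0.898).

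Quantile normalization ended both PDGF-BB calls of Ednra (-0.23, adjusted p = 0.129 in wild-type and -0.25, adjusted p = 0.120 in labelled knockout cells), and the second ended too without replicate 2 of treated labelled knockout (-0.35, adjusted p = 0.0642), with no filter (-0.45, adjusted p = 0.0647) and by edgeR with no filter (-0.53, adjusted p = 0.105). The last also ended the call by label with PDGF-BB (-0.62, adjusted p = 0.0510). Hoxb4 (0.0973), a homeobox factor, Wasf3 (0.105), an actin regulator, and Dcaf4 (0.109) were the genes most alike to Ednra over the 12 libraries by the root mean square difference. Ednrb, the gene of the ETB receptor (ENSMUSG00000022122, chromosome 14, 103814625 to 103844402, minus strand), had 1, 3 and 0 reads in untreated wild-type, 1, 2 and 2 in treated wild-type, 0, 0 and 5 in untreated labelled knockout and 10, 5 and 2 in treated labelled knockout libraries. These groups overlapped or touched, and no comparison of Ednrb was called in fits with no filter (lowest adjusted p = 0.188).

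**Figure D3:**
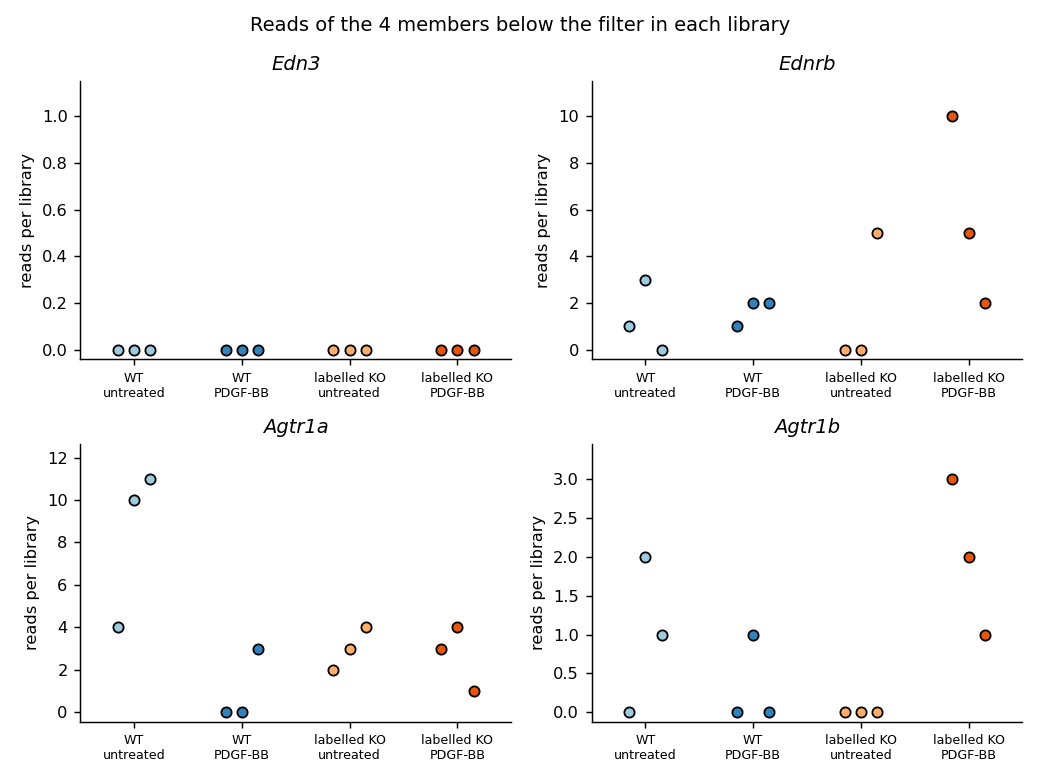
Reads per library (vertical axis, from 0) of the 4 members below the filter, by group (horizontal axis), with 1 point per library. Edn3 is at 0 in all libraries, no library has more than 11 reads of any of the 4 genes, and Agtr1a reaches 11 reads in an untreated wild-type library.

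Mme, neprilysin, which breaks down endothelin 1 among other peptides, was lower in labelled knockout cells, at 32.6 ± 4.92 and 12 ± 1.73 CPM (SD, n = 3) untreated (log2 -1.37, SE 0.15, limma-trend adjusted p = 1.37e-05) and at 26.2 ± 5.68 and 10.1 ± 0.623 CPM with PDGF-BB (-1.27, SE 0.15, adjusted p = 2.61e-05). The third tested gene of this list, Ece2, was called in no comparison. Of the 5 listed genes of the endothelin pathway outside the members, 3 were tested. Edn2 was among them only through its 3 treated wild-type libraries, the group that its calls compare. With PDGF-BB 1 gene, Edn2, was higher in wild-type and none was called in labelled knockout cells. By label 1, Mme, was lower untreated and 2, Mme and Edn2, were lower with PDGF-BB. In these comparisons 59.4%, 42.4%, 34.0% and 37.2% of all genes were called in either direction.

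Adm, the gene of adrenomedullin (ENSMUSG00000030790, chromosome 7, 110627661 to 110629820, plus strand), was lower in labelled knockout cells, the direction opposite to Edn1. It was at 22.8, 27.5 and 19.0 CPM in untreated wild-type and at 9.82, 11.2 and 11.9 CPM in untreated labelled knockout libraries. With PDGF-BB it was at 19.4, 16.7 and 15.1 CPM in wild-type and at 8.89, 6.61 and 7.25 CPM in labelled knockout libraries. Every labelled knockout library lay below every wild-type one, with ratios of mean CPM of 0.474 untreated and 0.445 with PDGF-BB. The log2 difference was -1.0 (SE 0.14, limma-trend adjusted p = 0.000138) and -1.07 (SE 0.14, adjusted p = 7.70e-05), and both were called under all 22 alternatives.

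The fall of Adm with PDGF-BB was -0.41 in wild-type (SE 0.14, limma-trend adjusted p = 0.0251), where the groups overlapped, and -0.48 in labelled knockout cells (SE 0.14, adjusted p = 0.0155), where they did not. The interaction was -0.07 (95% interval -0.51 to 0.37, adjusted p = 0.869). The wild-type call ended with no filter (-0.41, adjusted p = 0.0523), under TMM scaling (-0.33, 0.0588), in a fit of the 2 groups alone (-0.41, 0.0560) and without replicate 1 or 2 of untreated wild-type (-0.41 and -0.28, 0.0592 and 0.125) or replicate 2 or 3 of treated wild-type (-0.40 and -0.33, 0.0582 and 0.0806). The labelled knockout call ended without replicate 3 of untreated labelled knockout (-0.43, 0.0608) or replicate 2 or 3 of treated labelled knockout (-0.40 and -0.46, 0.0700 and 0.0529). Stard10 (0.150), a lipid transfer protein, Map3k7cl (0.165) and Clec2d (0.176), a lectin-like ligand, were the genes most alike to Adm by the root mean square difference over the 12 libraries.

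Of the receptor genes of adrenomedullin, Calcrl and Ramp2 were higher in labelled knockout cells, while Ackr3 was lower, as Adm was. Ramp3 was lower with PDGF-BB and not untreated. Calcrl, which encodes the receptor itself, was at 6.16 ± 1.05 CPM (SD, n = 3) in untreated wild-type, 8.35 ± 0.802 in treated wild-type, 44.9 ± 11.1 in untreated labelled knockout and 36.6 ± 0.879 CPM in treated labelled knockout cells. Its log2 difference between labels was 2.66 untreated (SE 0.15, limma-trend adjusted p = 3.65e-08) and 2.01 with PDGF-BB (SE 0.15, adjusted p = 3.48e-07). Ramp2, its partner in adrenomedullin binding, was higher by label by 1.03 untreated (SE 0.15, adjusted p = 0.000194) and 0.97 with PDGF-BB (SE 0.15, adjusted p = 0.000322). Calcrl and Ramp2 are much expressed in endothelium, and between the labels the endothelial markers moved with them as given above. The part of these markers in the differences by label was not tested. With PDGF-BB in wild-type cells Calcrl rose (0.39, SE 0.15, limma-trend adjusted p = 0.0377) and Ramp2 was not called (0.15, adjusted p = 0.407). The Calcrl rise lost its call with no filter (0.0765) and in a fit of the 2 groups alone (0.0546). It also lost it without replicate 2 or 3 of untreated wild-type (0.0576 and 0.168). The same held without replicate 2 or 3 of treated wild-type (0.0742 and 0.0962). Leaving out replicate 1, 2 or 3 of treated labelled knockout ended it too (0.0511, 0.0509 and 0.0511).

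Ramp3, another partner of Calcrl, rose with PDGF-BB in wild-type cells from 0.0918 ± 0.0528 to 2.31 ± 0.790 CPM (SD, n = 3, log2 1.57, SE 0.18, limma-trend adjusted p = 6.39e-06). In labelled knockout cells it was at 0.408 ± 0.209 untreated and 0.909 ± 0.222 CPM with PDGF-BB, a change of 0.44 (SE 0.18, adjusted p = 0.0580) that 8 of 21 alternatives called, among them TMM scaling (0.48, adjusted p = 0.0413), edgeR (1.22, 0.0381) and DESeq2 (1.22, 0.0398). By label Ramp3 was lower with PDGF-BB (-0.77, SE 0.18, adjusted p = 0.00430), and the interaction was -1.13 (adjusted p = 0.0230). Ramp3 passed the filter through its 3 treated wild-type libraries, with 1 other library at 1 CPM or more, so these tests compare the group that let it pass. The rise in wild-type and the difference by label with PDGF-BB were called with no filter too. Untreated, the difference of Ramp3 by label was 0.36 (SE 0.18, adjusted p = 0.137). It was called as higher by edgeR (2.1, 0.0342, and 2.13, 0.0157 with no filter), DESeq2 (2.22, 0.0229) and limma-trend with a pseudocount of 0.25 (0.90, 0.0398). Ackr3, a scavenging receptor that binds adrenomedullin, rose with PDGF-BB under both labels (0.54 and 0.39, SE 0.067 each) and was lower by label (-0.61 untreated and -0.76 with PDGF-BB, SE 0.067 each). Pam, the enzyme that amidates adrenomedullin, fell with PDGF-BB from 1530 ± 63.2 to 1130 ± 43.1 CPM in wild-type and from 1600 ± 160 to 1170 ± 7.13 CPM in labelled knockout cells. Of the 5 tested of 10 listed genes of this pathway, 3 rose and 1 fell with PDGF-BB in wild-type, 1 rose and 1 fell in labelled knockout cells, and 2 were higher and 1 (untreated) or 2 (with PDGF-BB) lower by label. Of all genes, 59.4% and 42.4% were called with PDGF-BB in wild-type and labelled knockout cells, and 34.0% and 37.2% by label untreated and with PDGF-BB. Without replicate 1 of treated wild-type 2 genes of this list rose in labelled knockout cells. The interaction of Ramp3 lost its call without replicate 1 or 3 of untreated wild-type (adjusted p = 0.0654 and 0.0604), replicate 2 of untreated labelled knockout (0.0644) or replicate 1 or 2 of treated labelled knockout (0.0591 and 0.0748).

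**Figure D4:**
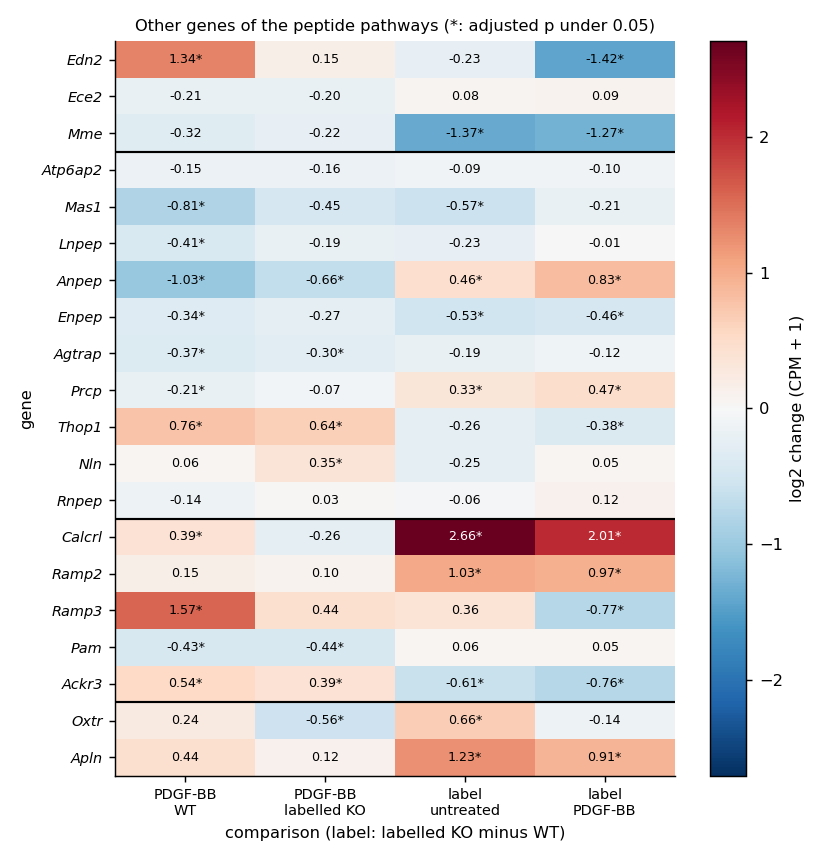
Log2 change on the CPM + 1 scale (colour and printed value, with an asterisk where the adjusted p was under 0.05) of the tested genes of the endothelin, renin-angiotensin, adrenomedullin, and vasopressin, oxytocin and apelin lists (rows, lists parted by lines) in the 4 comparisons of groups (columns). Calcrl has the largest differences by label, 2.66 and 2.01, and Edn2 and Ramp3 the largest rises with PDGF-BB in wild-type cells, 1.34 and 1.57. Both of these passed the filter through their treated wild-type libraries, the group compared there, at means of 2.05 and 2.31 CPM.

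Ace, the angiotensin converting enzyme (ENSMUSG00000020681, chromosome 11, 105967945 to 105989964, plus strand), had its lowest mean in untreated wild-type cells, at 25.7 ± 2.47 CPM (SD, n = 3), and means of 34.5 to 35.1 CPM in the other 3 groups. It was at 27.5, 22.9 and 26.6 CPM in untreated wild-type, 27.1, 37.5 and 39.1 CPM in treated wild-type, 42.3, 32 and 31.2 CPM in untreated labelled knockout and 34.5, 33.6 and 35.5 CPM in treated labelled knockout libraries. The low wild-type library with PDGF-BB is replicate 1, which stood apart over all genes, with a deviation that fell with exon length as given above. Ace rose with PDGF-BB in wild-type by 0.40 (SE 0.14, limma-trend adjusted p = 0.0236), and by 0.56 (adjusted p = 0.000140) without that library. In labelled knockout cells the change was -0.01 (95% interval -0.31 to 0.29, adjusted p = 0.956). By label Ace was higher by 0.43 untreated (SE 0.14, adjusted p = 0.0289), and the difference with PDGF-BB was 0.02 (95% interval -0.28 to 0.32, adjusted p = 0.934).

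The difference between the responses of Ace was -0.41 (95% interval -0.84 to 0.01, limma-trend adjusted p = 0.274), and it was called without replicate 1 of treated wild-type (-0.57, adjusted p = 0.0128). The wild-type rise of Ace lost its call with no filter (0.40, adjusted p = 0.0508), in a fit of the 2 groups alone (0.40, 0.0570) and without replicate 2 of untreated wild-type (0.32, 0.0956) or replicate 2 or 3 of treated wild-type (0.34 and 0.31, 0.0838 and 0.0819). The untreated difference by label lost it with no filter (0.43, 0.0601) and without replicate 2 or 3 of untreated wild-type (0.35 and 0.46, 0.116 and 0.0568) or replicate 1 of untreated labelled knockout (0.29, 0.124). In the GENCODE annotation 5.6% of the exonic bases of Ace overlap exons of a gene on the other strand, against at most 1.7% for any other member, and the strand setting of the counting is not given in the sources used here.

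Agtr1a and Agtr1b, the pair of AT1 receptor genes, had few reads. Agtr1a (ENSMUSG00000049115, chromosome 13, 30336441 to 30382867, plus strand) had 4, 10 and 11 reads in untreated wild-type, 0, 0 and 3 in treated wild-type, 2, 3 and 4 in untreated labelled knockout and 3, 4 and 1 in treated labelled knockout libraries. The untreated wild-type libraries lay above the treated ones, and fits with no filter called the fall: log2 -0.47 on the CPM + 1 scale by limma-trend (adjusted p = 0.00302) and -2.69 by edgeR (adjusted p = 0.0106), the second added after the data had been seen. Agtr1b (ENSMUSG00000054988, chromosome 3, 20314473 to 20367177, minus strand) had 0 to 3 reads per library, 0 in each untreated labelled knockout library and 3, 2 and 1 in the treated ones. Its rise there was called by limma-trend with no filter (0.14, adjusted p = 0.0401) and not by edgeR with no filter (adjusted p = 0.154). Since the coding sequences of the pair are close, reads could be split between them, and both values are uncertain.

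Other renin-angiotensin genes were measured at higher levels than the AT1 receptors. Of 16 listed genes with data, 10 were tested: 1 rose and 6 fell with PDGF-BB in wild-type (median -0.28, against -0.08 over all genes), and 2 rose and 2 fell in labelled knockout cells (-0.18, against -0.07). By label 2 were higher and 2 lower, both untreated (-0.21, against -0.13) and with PDGF-BB (-0.06, against -0.14). In these comparisons 59.4%, 42.4%, 34.0% and 37.2% of all genes were called in either direction. The 6 falls in wild-type, where 34.4% of all genes were called lower, were 4 to 6 with 1 library left out. Some of them lost their call by edgeR and under TMM scaling. Without replicate 1 of treated wild-type 5 genes of the list fell in labelled knockout cells and 6 were lower by label untreated. The latter count was 4 without replicate 3 of untreated labelled knockout, and 1 without replicate 1 or 3 of untreated wild-type, replicate 2 of untreated labelled knockout or replicate 1 or 3 of treated labelled knockout. With PDGF-BB the count of lower genes was 1 without replicate 3 of treated wild-type or replicate 1 of treated labelled knockout, and 0 by limma-trend without replicate 2 of treated labelled knockout. Anpep, the aminopeptidase that shortens angiotensin III, fell with PDGF-BB from 7.87 ± 0.160 to 3.37 ± 0.597 CPM (SD, n = 3) in wild-type and from 11.3 ± 1.64 to 6.73 ± 0.196 CPM in labelled knockout cells, and was higher by label by 0.46 and 0.83 on the log2 scale (SE 0.12 each). Thop1, a peptidase that makes angiotensin 1-7, rose with PDGF-BB by 0.76 and 0.64 (SE 0.11 each). Mas1, the receptor of angiotensin 1-7, fell with PDGF-BB in wild-type from 1.71 ± 0.537 to 0.551 ± 0.282 CPM (log2 -0.81, SE 0.20, limma-trend adjusted p = 0.00316). Its difference by label untreated (-0.57, adjusted p = 0.0387) was called in 8 of 21 alternatives. The precursor gene Agt had 66 reads, the renin gene Ren1 1, and Agtr2, the AT2 receptor gene, 21 reads over all 12 libraries.

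Avpr1a, the vasopressin receptor of smooth muscle (ENSMUSG00000020123, chromosome 10, 122448499 to 122453452, plus strand), lay just over the filter. It was at 1.39, 1.43 and 0.953 CPM in untreated wild-type, 0.911, 1.06 and 0.613 CPM in treated wild-type, 1.31, 0.669 and 1.00 CPM in untreated labelled knockout and 0.691, 0.584 and 0.625 CPM in treated labelled knockout libraries. All pairs of groups that were compared overlapped, and no comparison was called (log2 changes of -0.28 to 0.00, lowest limma-trend adjusted p = 0.138). With 10 to 28 reads per library the 95% intervals were wide, from -0.61 to 0.06 for PDGF-BB in either label. In the list of vasopressin, oxytocin, kinin, urotensin and apelin genes 2 of 15 were tested. Oxtr, the oxytocin receptor, was higher by label untreated (0.66, SE 0.15, adjusted p = 0.00351) and fell with PDGF-BB in labelled knockout cells (-0.56, SE 0.15, adjusted p = 0.00759). Apln, the gene of apelin, was higher by label by 1.23 untreated and 0.91 with PDGF-BB (SE 0.24 each, adjusted p = 0.00148 and 0.0104).

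Over the members, PDGF-BB in wild-type cells gave 1 call higher (Ace) and 3 lower (Edn1, Ednra, Adm) of 6 tested, where 59.4% of all genes were called, 25.0% as higher and 34.4% as lower. In labelled knockout cells 3 were lower (Edn1, Ednra, Adm) and 0 higher by limma-trend over all 12 libraries, edgeR or DESeq2, where 42.4% of all genes were called, 17.6% as higher and 24.8% as lower. Before adjustment 1 member, Ece1, passed 0.05 as higher there in limma-trend, and its rise was called by limma-trend in a fit of the compared groups alone (0.21, adjusted p = 0.0130) and by edgeR with no filter (0.29, adjusted p = 0.0148). By label 2 were higher (Edn1, Ace) and 2 lower (Ednra, Adm) untreated, where 9.15% and 24.8% of all genes were called higher and lower. With PDGF-BB 1 was higher (Edn1) and 2 lower (Ednra, Adm), where 10.6% and 26.6% of all genes were. The 3 against 3 libraries did not overlap for 2, 4, 4 and 4 of the 6 tested members in these 4 comparisons, beside 62.3%, 63.2%, 54.7% and 49.5% of all genes. The interaction was called for 1 of 6, Edn1. Comparisons that share a group of libraries share its error, so the counts are not independent of each other.

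**Figure D5:**
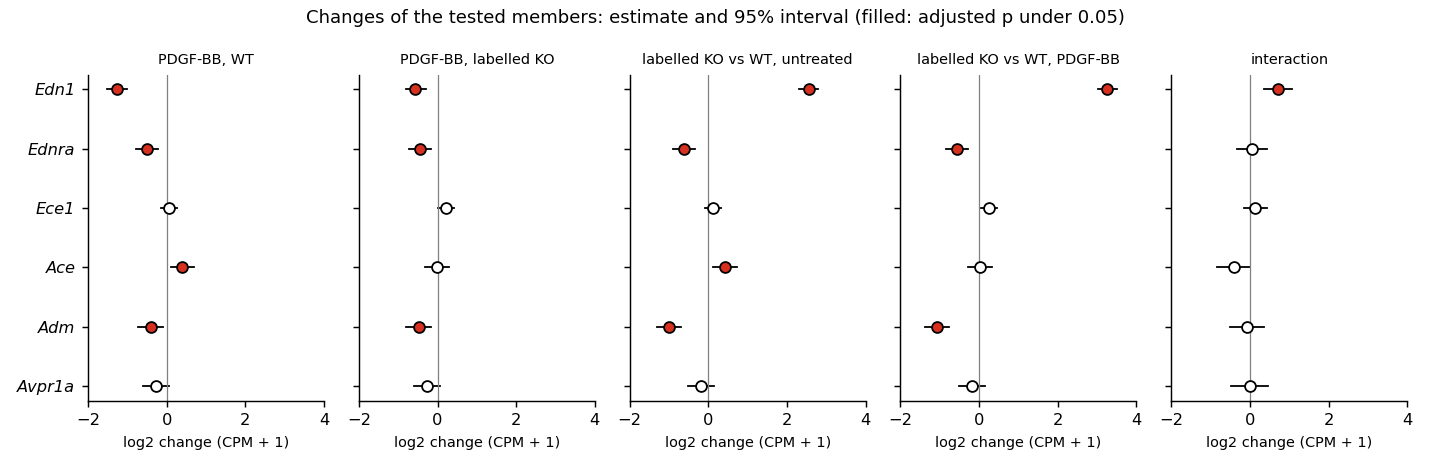
Log2 change on the CPM + 1 scale (horizontal axis) with its 95% interval for the 6 tested members (vertical axis) in the 5 tests, with filled points where the adjusted p was under 0.05. Edn1 is at 2.55 and 3.26 by label and lower with PDGF-BB, Ednra and Adm are lower in all 4 comparisons of groups, and only Edn1 is called in the interaction.

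Among genes that couple these receptors to calcium release, Itpr3, Plcb4 and Plcb1 had the largest called changes with PDGF-BB under both labels. Itpr3, an inositol trisphosphate receptor of the calcium store, rose with PDGF-BB from 163 ± 3.85 to 344 ± 85.7 CPM (SD, n = 3) in wild-type and from 82.8 ± 5.17 to 217 ± 7.22 CPM in labelled knockout cells. Plcb4, a phospholipase C, fell with PDGF-BB from 52.4 ± 1.90 to 25.6 ± 3.82 CPM and from 94.0 ± 5.93 to 60.9 ± 2.26 CPM. By label Itpr3 was lower (-0.97 untreated and -0.63 with PDGF-BB, SE 0.14 each) and Plcb4 higher (0.83 and 1.23, SE 0.096 each). Plcb1, another phospholipase C, fell with PDGF-BB as well (-0.75 in wild-type and -0.67 in labelled knockout cells, SE 0.11 each). By label Plcb1 was lower, opposite to Plcb4 (-0.55 untreated and -0.46 with PDGF-BB, SE 0.11 each). Quantile normalization ended the Plcb1 call by label with PDGF-BB (-0.3, limma-trend adjusted p = 0.0747). Itpr1, a receptor of the same kind as Itpr3 that was named after its values were seen, fell under both labels (-0.72 and -0.55, SE 0.15 each), and the second call ended without replicate 1 of untreated labelled knockout (-0.50, adjusted p = 0.0503).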

How the data were processed

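Per the submitters' processing notes, the authors aligned reads with HISAT2 and counted them with HTSeq on mm10, and the deposited table's header gives coordinates on GRCm38.p6. Per the labels' protocols the libraries were made with a stranded mRNA kit. The authors' deposited values are CPM, not the FPKM of the table's name, since every library has the same sum, and all values are whole reads (within 0.01 read) of the library total. Reads were recovered on that basis.

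Groups follow the labels. Genes with at least 1 CPM in at least 3 of 12 libraries were kept (14202), and limma-trend (limma 3.58.1, R 4.3.3) was fitted to log2(CPM + 1) with 1 mean per group over all libraries, 2-sided, calling a gene at a Benjamini-Hochberg adjusted p under 0.05 across those genes. This scale understates the change of low genes. Errors are SE from the fit, or SD over 3 libraries. Levels per kb use the deposited exon length, and counting limits allow 3 reads at 0. Alternatives were another pseudocount (0.25), no filter, a mean CPM of at least 5, TMM and quantile scaling, DESeq2 1.42.0 and edgeR 4.0.16 on the recovered reads, the compared groups alone, a replicate block and each library left out. The edgeR test was also run with no filter, an alternative added after the data had been seen. The fit was tested on simulated data. Other genes are named from fixed lists, up to 3 called genes with the largest change per list and comparison, and the 3 genes most alike to each tested member whose group means span at least 1 on the log2 scale. The counts over a list of genes downstream of the receptors are not reported here. The members and lists were chosen with earlier results of these data known. Figures were drawn with matplotlib 3.10.9.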

Additional observations from a re-analysis of the deposited data

Results flagged for a closer look

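Among the members and the genes of the pathway lists, 5 had a response to PDGF-BB that differed between the genotype labels in limma-trend. This was tested by the interaction (labelled knockout minus wild-type, log2, Benjamini-Hochberg adjusted p over all genes), which called 3.92% of all genes. Tested were 6 members, 3 endothelin, 10 renin-angiotensin and 5 adrenomedullin list genes, 2 of the vasopressin to apelin list, and genes of the downstream list. Edn1 was at 0.71 (adjusted p = 0.0288), with a smaller fall in labelled knockout cells. Edn2 was at -1.19 (adjusted p = 0.0113) and Ramp3 at -1.13 (adjusted p = 0.0230), and both passed the filter through treated wild-type libraries, the group that sets these values. The interaction of Edn2 was not called by edgeR (adjusted p = 0.849). The rise of Ramp3 in labelled knockout cells (0.44, adjusted p = 0.0580) was called in 8 of 21 alternatives. Oxtr was at -0.80 (adjusted p = 0.0499), and 7 of 21 alternatives called it, with adjusted p from 0.0130 to 0.133. Grk5, a kinase that turns off G protein-coupled receptors, was at -0.40 (adjusted p = 0.0122), from 120 ± 2.12 to 157 ± 4.59 CPM (SD, n = 3) in wild-type and from 144 ± 2.14 to 142 ± 5.90 CPM in labelled knockout cells, and lost its call without replicate 2 of treated labelled knockout (-0.38, adjusted p = 0.0510) and by edgeR with no filter (-0.42, adjusted p = 0.0699). Among the marker genes, Lmod1 of smooth muscle (0.67, adjusted p = 0.0264) and Csf1r of macrophages (0.63, adjusted p = 0.0339) were called too. Lmod1 lost its call with no filter (0.0637), and without replicate 1 or 2 of untreated wild-type (0.0553 and 0.0665) or replicate 2 of treated wild-type (0.0505). It also lost it without replicate 1, 2 or 3 of treated labelled knockout (0.0762, 0.0674 and 0.0638). Csf1r lost its call with no filter (0.0663), with the replicate block (0.0691), and, among other libraries, without replicate 1, 2 or 3 of treated labelled knockout (0.104, 0.0671 and 0.0634).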

How the results depend on the processing

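The counts of members called by label stayed at 3 to 4 of 6 with 1 library left out, against 4 untreated and 3 with PDGF-BB. The count for PDGF-BB in wild-type was 4, fell to 2 in a fit of the compared groups only, and ran from 2 to 5 with 1 library left out. In labelled knockout cells it was 3 and ran from 1 to 4 with 1 library left out. For the interaction it was 1, became 0 in limma-trend with no filter and 0 under quantile normalization (1, Edn1, by edgeR and by DESeq2), and ran from 0 to 2 with 1 library left out. No pairing of libraries by replicate number was seen, which with 3 libraries per group does not exclude it. Correlations of deviations ran from -0.231 to 0.175 for the same number and from -0.34 to 0.347 for different numbers. With the replicate number as a block the counts were 4, 3, 4, 4 and 1. Ece1 was added by label with PDGF-BB (0.25, limma-trend adjusted p = 0.0418) and no other member's call changed. Of 643 values of the 6 tested members under the alternatives, 594 kept their side of the threshold, 34 lost and 15 gained a call, and no called value changed sign. TMM scaling moves the median of all genes from -0.128 to -0.007 by label untreated and from -0.144 to -0.050 with PDGF-BB. Depth limits Edn3, Ednrb, Agtr1a and Agtr1b, with at most 11 reads per library, and Avpr1a.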
